A study of Mus musculus with 73 samples.

Results

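Chrna9, Chrna10, Chrna1 and Kcnn2 are the 4 genes described here, out of 55291 gene rows, in 73 single cells picked by hand from mouse cochlea at postnatal day 14. They were chosen by name and not by a rule on their values, although earlier results of these data were known. Chrna9, Chrna10 and Kcnn2 encode the acetylcholine receptor subunits and the potassium channel of the efferent synapse, and Chrna1 a muscle receptor subunit. Every cell carried the label of a Casz1-/- inner hair cell. Its genotype was Atoh1Cre/+; Casz1flox/flox, with the reporters Ai47 and Rosa26-CAG-Frt-stop-Frt-tdTomato and the driver Fgf8-Flpo/+. Cre made from Atoh1 deletes the floxed gene in hair cells and turns on GFP, and Flpo made from Fgf8 turns on tdTomato. Only cells that carried both reporters were picked. The study asked what the transcription factor Casz1 does for inner hair cell fate. All cells form 1 group and no animal is named, so they count as 1 sample with no replicates. Wild-type cells were not analysed here, so no value below measures an effect of the deletion, and there are no p-values.

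Efferent neurons of the brainstem end on hair cells and release acetylcholine. The receptor of hair cells is a pentamer of the alpha9 and alpha10 subunits, encoded by Chrna9 and Chrna10. It lets calcium in, and this calcium opens SK2, the small-conductance potassium channel encoded by Kcnn2, so that the cell is inhibited. In the mature cochlea the main targets are outer hair cells, the amplifying cells that carry the motor protein prestin. Inner hair cells, which pass sound to the auditory nerve, have direct efferent contacts before hearing begins. In rats, inner hair cells are known to lose Chrna10 after that stage. Chrna1 encodes the acetylcholine-binding subunit of the muscle receptor.

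In mm10 and the GENCODE vM21 annotation, Chrna9 spans chr5:65934921-65977326 on the plus strand, Chrna10 chr7:102111266-102116828 on the minus strand and Chrna1 chr2:73563215-73580338 on the minus strand. RefSeq promoter windows of 300 bases in build GRCm38.p6 matched 3 of the 4 members, and they are printed because the receptor genes were above 10 CPM in some cells and near 0 in others. Capitals mark matches to the E-box CANNTG, the core sequence bound by basic helix-loop-helix factors. The windows are chr5:65966874-65967173 (plus strand) for Chrna9, chr7:102116664-102116963 (minus strand) for Chrna10 and chr2:73580289-73580588 (minus strand) for Chrna1.
Chrna9: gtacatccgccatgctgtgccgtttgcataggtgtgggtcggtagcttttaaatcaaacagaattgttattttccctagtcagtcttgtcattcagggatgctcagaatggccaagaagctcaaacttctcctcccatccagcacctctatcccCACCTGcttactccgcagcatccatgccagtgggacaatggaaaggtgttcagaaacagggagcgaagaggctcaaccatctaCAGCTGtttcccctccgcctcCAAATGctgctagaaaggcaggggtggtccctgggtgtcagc
Chrna10: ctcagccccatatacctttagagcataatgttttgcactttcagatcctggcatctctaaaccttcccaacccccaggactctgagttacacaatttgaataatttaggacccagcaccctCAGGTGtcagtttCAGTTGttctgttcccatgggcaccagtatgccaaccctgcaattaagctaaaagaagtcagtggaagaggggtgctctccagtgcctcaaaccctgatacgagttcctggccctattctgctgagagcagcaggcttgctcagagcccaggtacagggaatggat
Chrna1: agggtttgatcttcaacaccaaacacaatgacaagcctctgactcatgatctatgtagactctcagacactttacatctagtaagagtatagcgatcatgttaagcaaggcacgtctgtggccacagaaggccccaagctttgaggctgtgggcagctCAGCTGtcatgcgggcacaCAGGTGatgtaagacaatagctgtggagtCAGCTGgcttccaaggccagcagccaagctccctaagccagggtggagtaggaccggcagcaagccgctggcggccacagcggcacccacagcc
The Chrna9 window lies inside the longer GENCODE gene model. It held 3 E-box matches, against 2 for Chrna10 and 3 for Chrna1. On either strand the E-box was present in 72.3% of the 32851 promoter windows of the same length. The hexamer AGGTCA, a half-site of nuclear receptors, was in 16.3% of all windows and in none of these 3.

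Library totals ran between 11027945 and 37183702 counts, with a median of 17333640, and a cell showed counts for 6954 to 10688 genes. Levels are in CPM, the count scaled to a common library total. Detection in a cell means 10 CPM or more, or 110 counts where the library was smallest and 372 where it was largest. Shares carry exact Clopper-Pearson 95% intervals over cells, which cover counting error only. All 6 general hair cell markers examined (Myo7a, Myo6, Pou4f3, Tmc1, Cib2 and Otof) were detected in all 73 cells. So was the inner hair cell gene Slc17a8, which loads glutamate into vesicles, at 436 to 2992 CPM. Of 9 markers of efferent neurons, 7 were detected in 0 cells, among them Chat, Slc18a3 and Slc5a7, the genes of acetylcholine synthesis and transport, whose highest level in any cell was 0.0964 CPM. Gad2 was detected in 42 cells and Calca in 2. Of 39 markers of neurons, supporting cells, glia, mesenchyme, blood and immune cells, 34 were detected in fewer than 10 cells. The other 5 were Snap25 in 68 cells, Gad2 in 42, Sox10 in 27, the immune gene C1qb in 22 and the supporting cell gene Gjb6 in 11. In 16 cells, 1 or more of these 34 stood at 50 CPM or higher.

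Chrna9 had the highest mean per kb of the 4 genes. It was at 100 CPM or more in 42 cells, between 10 and 100 CPM in 9 and below 10 CPM in 22. Its lowest, median and highest levels were 0, 133 and 980 CPM, with quartiles of 0.365 and 316 CPM. Detection was reached in 51 of 73 cells (69.9%, interval 57.999 to 80.1), and in these cells the median was 227 CPM. Of the other 22 cells, 12 had no count, 8 had a count but stayed under 1 CPM, and 2 lay between 1 and 10 CPM. The nearest values on either side of the threshold were 12.1 CPM in cell 65 and 6.01 CPM (124 counts) in cell 13. The highest was 24044 counts in cell 4. By mean level Chrna9 stood at place 958 of the 27502 genes with a count.

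Chrna10 was detected in fewer cells and at lower levels. It ranged from 0 to 479 CPM with a median of 0.365 CPM, and was detected in 31 of 73 cells (42.5%, interval 30.97 to 54.6). The median over these 31 cells was 73.4 CPM. No count was present in 30 cells, 9 had a count but stayed under 1 CPM, and 3 lay between 1 and 10 CPM. The values next to the threshold were 16.1 CPM in cell 7 and 8.81 CPM in cell 35. The maximum of 6092 counts was in cell 64. Exons of Chrna10 share 1025 bases with exons of Art1, an ADP-ribosyltransferase gene on the opposite strand. Whether reads were counted by strand is not given, so those of the pair cannot be told apart there. Art1 was detected in 11 cells, all of them with Chrna10, at 32.3 CPM or less, and its rank correlation with Chrna10 was 0.58.

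Chrna1, the muscle-type subunit, was also on in a minority of cells. It ranged from 0 to 591 CPM with a median of 0.363 CPM, and was detected in 29 of 73 cells (39.7%, interval 28.5 to 51.9). Over these 29 cells the median was 86.4 CPM. It had no count in 31 cells, and 13 cells lay between 1 count and 10 CPM. The values next to the threshold were 10.6 CPM in cell 40 and 8.84 CPM in cell 4. The partners of Chrna1 in the muscle receptor were rare: Chrnb1 was detected in 13 cells, and in 6 of them together with Chrna1. Chrnd, Chrne and Chrng were detected in 0 cells, with maxima of 7.37, 0 and 7.08 CPM, and with 0 of 73 cells the share can be up to 4.11% at a floor of 3 cells and 4.93% by the exact interval. Among markers of skeletal muscle, Tnnt3 was detected in 5 cells, Acta1, Myh4 and Ckm in 1 each, and Myh1 and Chrnd in 0. Summed over these 6 markers, the level was 0 CPM in the median cell and 94.4 CPM in the highest.

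Kcnn2, which spans chr18:45268860-45686024 on the plus strand, was the most widely detected member and was graded rather than on or off. Its lowest, median and highest levels were 0, 49.3 and 280 CPM, with quartiles of 19.1 and 102 CPM. In all, 63 of 73 cells detected it (86.3%, interval 76.2 to 93.2). Chrna9 and Kcnn2 are the 2 members detected in at least 37 cells, as were 8.87% of all gene rows and 17.8% of those with a count. Between 10 and 50 CPM there were 27 cells, between 50 and 100 CPM 17 cells, and 19 cells had 100 CPM or more. The other 10 cells held 7 between 1 and 10 CPM and 3 with no count (cells 32, 42 and 72). The values next to the threshold were 10.5 CPM in cell 19 and 8.72 CPM in cell 1, so the call rests on a small step for this gene. Exons of Kcnn2 share 284 bases with an antisense gene, A330093E20Rik, detected in 11 cells, all of them with Kcnn2. They share 323 bases with AC121957.1, a transcribed pseudogene on the opposite strand whose level was not analysed here.

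**Figure D1:**
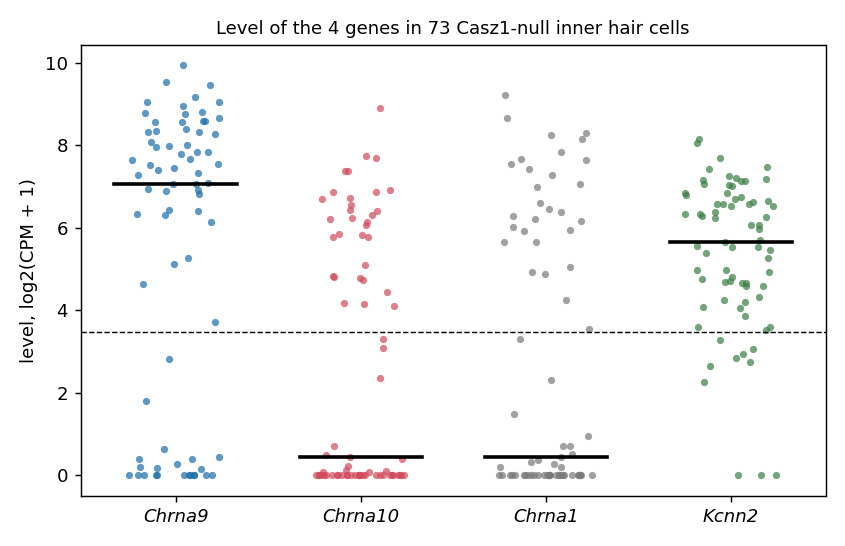
Level of Chrna9, Chrna10, Chrna1 and Kcnn2 on the log2(CPM + 1) scale, with 1 point per cell (73 cells), a bar at the median and a dashed line at 10 CPM. The receptor genes had 2, 3 and 3 cells between 1 and 10 CPM, while Kcnn2 had 7 there and 27 just above, between 10 and 50 CPM.

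Levels of the 4 genes were compared after division by exon length. Mean levels were 62.9 CPM per kb for Chrna9, 14.9 for Chrna10, 13.1 for Chrna1 and 9.23 for Kcnn2. In the cells that detected the gene, the medians were 74.9, 27.9, 19.7 and 10.0 CPM per kb in that order. The quartiles over those cells were 41.6 and 126 CPM per kb for Chrna9, 11.6 and 41.8 for Chrna10, 13.5 and 44.8 for Chrna1, and 3.54 and 14.96 for Kcnn2. Between these quartiles, Chrna10 and Chrna1 covered nearly the same levels, Chrna9 met them only at its lower end, and Kcnn2 met them only at its upper end. In the 28 cells with both receptor subunits, Chrna9 exceeded Chrna10 per kb in 24 and was below it in 4. The ratio of Chrna9 to Chrna10 had a median of 2.72 per kb and ran from 0.381 in cell 36 to 16.2 in cell 26. The length used for Chrna10 includes the 1025 bases shared with Art1, and their effect on the ratio was not tested.

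Both subunits and the channel were detected together in 26 of 73 cells (35.6%, interval 24.7 to 47.7). Among these cells Chrna9 ran from 33.7 to 980 CPM (median 236), Chrna10 from 16.1 to 479 CPM (median 76.5) and Kcnn2 from 11.1 to 280 CPM (median 80.9). Cell 64 shows a strong set, with 378 CPM of Chrna9, 479 CPM of Chrna10 and 81.9 CPM of Kcnn2. Cell 7 shows a weak receptor, with 33.7 CPM of Chrna9, 16.1 CPM of Chrna10 and 79.9 CPM of Kcnn2. Chrna1 joined the set in 8 of the 26 cells. The share with the full set moved with the threshold, at 52.1% when 1 count of each gene was enough and 16.4% at 50 CPM. Without the 16 cells with a rare marker of another cell type it was 29.8%, or 17 of 57 cells. Without the 30 cells with such a marker, C1qb or Gjb6 at 50 CPM or more it was 30.2%, or 13 of 43 cells.

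An incomplete set was the commoner state, found in 47 of 73 cells (64.4%, interval 52.3 to 75.3). Of these 47 cells, 24 held 2 of the 3 genes, 19 held 1 and 4 held none. Chrna10 was the gene most often missing, in 42 cells, against 22 for Chrna9 and 10 for Kcnn2. Where missing, Chrna10 had no count in 30 of 42 cells, Chrna9 in 12 of 22 and Kcnn2 in 3 of 10. A count of each of the 3 genes was present in 12 of the 47 cells.

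The commonest incomplete state was Chrna9 with Kcnn2 and no Chrna10, in 20 cells. Chrna9 had a median of 237 CPM there (range 12.1 to 735) and Kcnn2 one of 87.0 CPM, while Chrna10 was at or below 8.81 CPM. The Chrna9 range overlapped that of the cells with the full set, and the medians were 237 and 236 CPM. Kcnn2 without either receptor subunit was found in 15 cells, at 10.5 to 138 CPM (median 24.7). In those cells Chrna9 was at most 6.01 CPM and Chrna10 at most 4.12 CPM.

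Receptor transcripts without the channel were rare, but Kcnn2 was detected in 63 of all 73 cells. Both subunits without Kcnn2 occurred in 2 cells, and Kcnn2 was at 8.72 CPM in cell 1 and 7.38 CPM in cell 26, close under the threshold. At 1 CPM every cell with both subunits also had Kcnn2, 31 of 31, but so did 70 of all 73 cells (95.9%). Chrna9 alone was found in cells 11, 32 and 42, at 78.1, 155 and 202 CPM, and 2 of these 3 cells had no Kcnn2 count. Chrna10 without Chrna9 was found in 3 cells. Cell 18 had 83.9 CPM of Chrna10, cell 25 had 53.7 CPM and cell 33 had 25.8 CPM, and all 3 had no count of Chrna9. Art1, on the opposite strand, was at 16.7, 17.3 and 0.544 CPM in these cells. None of the 3 genes was detected in cells 12, 14, 28 and 72, and Kcnn2 was the highest there in the first 3, at 5.27, 3.79 and 6.71 CPM.

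**Figure D2:**
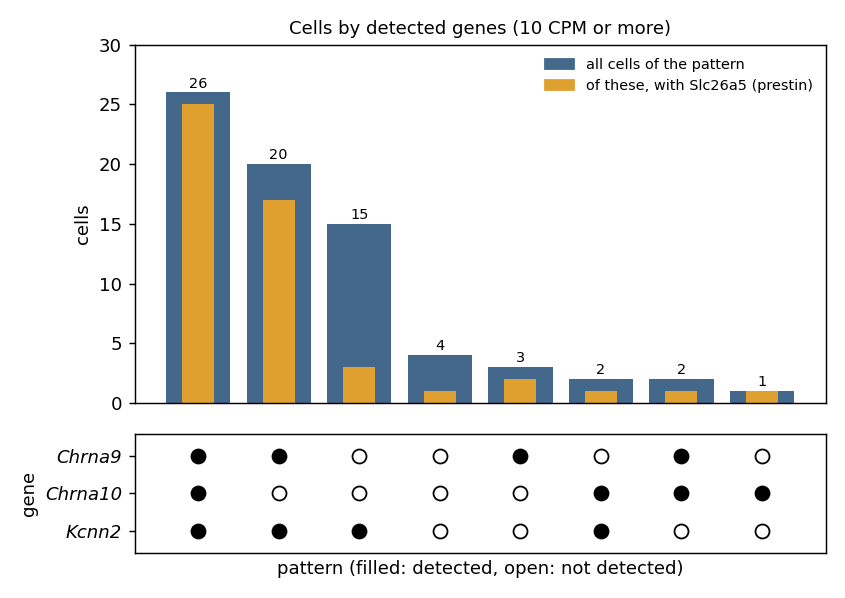
Number of cells (y axis) with each combination of Chrna9, Chrna10 and Kcnn2 at 10 CPM or more, with the number of these cells that also had Slc26a5 as the inner bar. The full set holds 26 cells, 25 of them with Slc26a5, and the 15 cells with Kcnn2 alone hold 3 with Slc26a5.

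Most cells with Chrna10 also had Chrna9, and Kcnn2 was spread over cells with and without the subunits. Of the 31 cells with Chrna10, 28 had Chrna9 (90.3%, interval 74.2 to 98.0), whereas of the 42 cells without Chrna10, 23 had Chrna9 (54.8%, interval 38.7 to 70.2). Kcnn2 was in 46 of the 51 cells with Chrna9 (90.2%, interval 78.6 to 96.7) and in 17 of the 22 cells without it (77.3%, interval 54.6 to 92.2). These intervals overlap. Chrna1 went the other way in direction: it was in 18 of 51 cells with Chrna9 (35.3%, interval 22.4 to 49.9) and in 11 of 22 without it (interval 28.2 to 71.8). Of the 10 cells without Kcnn2, 7 had Chrna1, while of the 63 cells with Kcnn2, 22 had it.

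Rank correlations over the 73 cells were modest among the members. These values are descriptions, since the cells differ in depth and no label names the animals they came from. Spearman's rho was 0.38 between Chrna9 and Chrna10, 0.36 between Chrna9 and Kcnn2, and 0.22 between Chrna10 and Kcnn2. Chrna1 stood at -0.23 with Chrna9, 0.00 with Chrna10 and -0.10 with Kcnn2. Among cells with both genes of a pair, rho was 0.29 for Chrna9 and Chrna10 (28 cells), 0.17 for Chrna9 and Kcnn2 (46 cells) and 0.36 for Chrna10 and Kcnn2 (28 cells). Of 8618 other genes that averaged at least 10 CPM, 264 correlated more closely with Chrna9 than Chrna10 did, and 318 more closely than Kcnn2 did. With Chrna10, 63 genes stood above Chrna9 and 511 above Kcnn2. With Kcnn2, 30 genes stood above Chrna9 and 507 above Chrna10. Corrected for the level of Slc26a5, which encodes prestin, the value for the 2 subunits was 0.11.

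**Figure D3:**
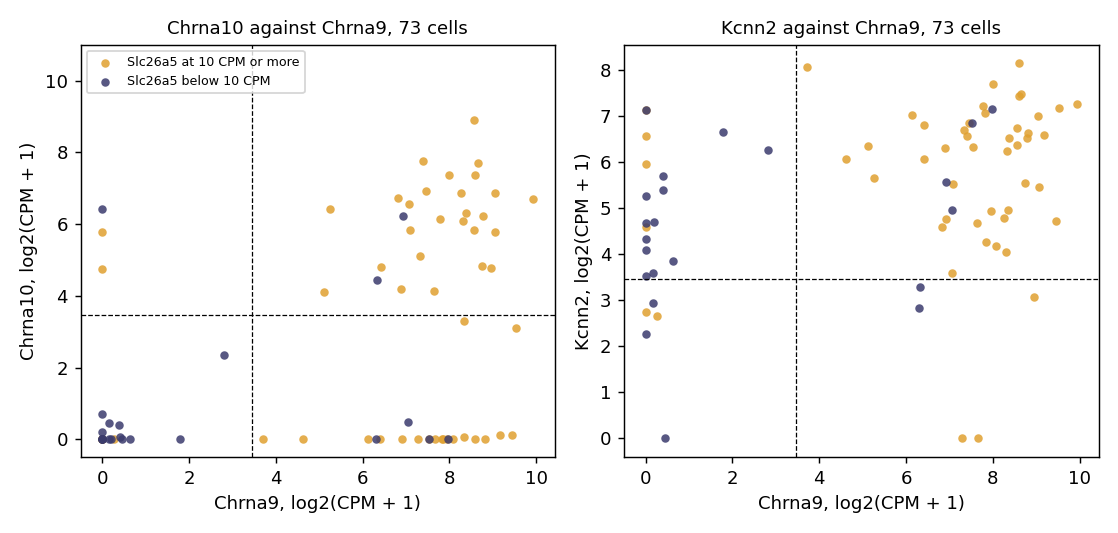
Chrna10 (left) and Kcnn2 (right) against Chrna9 in 73 cells, all on the log2(CPM + 1) scale, coloured by whether Slc26a5 reached 10 CPM, with dashed lines at 10 CPM. Of the 51 cells right of the line, 28 also lie above it for Chrna10 and 46 for Kcnn2, and 45 of the 51 have Slc26a5.

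The receptor genes were found mostly in cells with Slc26a5, the prestin gene of outer hair cells. Of the 7 outer hair cell genes listed, Sri was detected in 71 cells, Ocm in 68, Slc26a5 in 51 and Lbh in 20. Ikzf2 was detected in 6, Bcl11b in 1 and Insm1 in 0. Ocm was also in 17 of the 22 cells without Slc26a5. With Chrna9, rho was 0.68 for Sri, 0.67 for Slc26a5, 0.60 for Ocm and 0.36 for Lbh. The others averaged less than 10 CPM and were not ranked. Chrna9 was in 45 of 51 cells with Slc26a5 (88.2%, interval 76.1 to 95.6) and in 6 of 22 without it (27.3%, interval 10.7 to 50.2). Chrna10 was in 28 of 51 (54.9%, interval 40.3 to 68.9) and in 3 of 22 (13.6%, interval 2.91 to 34.9). The full set was in 25 of 51 cells with Slc26a5 (49.02%, interval 34.8 to 63.4) and in 1 of 22 without it (4.55%, interval 0.115 to 22.8). That 1 cell, cell 66, had 5.82 CPM of Slc26a5. Kcnn2 was in 46 of 51 cells with Slc26a5 and in 17 of 22 without it, and Chrna1 in 18 of 51 and in 11 of 22. These tallies equal those by Chrna9 above, although 6 cells of each 51 are not in the other. The cells were not assigned to these classes by any label, so no test was made, and the intervals do not serve as one. How many of all genes differ as much between cells with and without Slc26a5 was not computed. The difference is therefore not shown to be particular to the receptor genes.

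Atp2a3, the calcium pump of the endoplasmic reticulum counted here among inner hair cell genes, showed the reverse. Of the 7 inner hair cell genes listed, 6 had a negative rank correlation with Chrna9, from -0.37 for Tbx2 to -0.73 for Atp2a3. The other, Fgf8, whose driver allele marks the picked cells, had a rho of 0.55 with Chrna9, 0.38 with Chrna10 and 0.36 with Kcnn2. All 22 cells without Chrna9 had Atp2a3, and all 20 cells without Atp2a3 had Chrna9, while 31 cells had both. In the 15 cells with Kcnn2 alone, Atp2a3 ran from 124 to 2248 CPM and Slc26a5 from 0 to 50.5 CPM. In the 26 cells with the full set, Atp2a3 ran from 0 to 1541 CPM and Slc26a5 from 5.82 to 1229 CPM. Slc17a8 was present in both, at 863 to 1903 CPM with Kcnn2 alone and at 436 to 2992 CPM with the full set.

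Properties of the libraries moved with Chrna9. Spearman's rho for Chrna9 was -0.55 against the percentage of mitochondrial counts, 0.56 with the share of ribosomal protein genes, 0.30 with total counts and 0.30 with library number. For Chrna10 these were -0.26, 0.30, 0.00 and 0.14, for Kcnn2 -0.32, 0.16, 0.17 and 0.24, and for Chrna1 0.04, -0.40, -0.18 and -0.08. The mitochondrial share was 2.77% to 11.3% in cells with the full set, 4.18% to 10.4% with Chrna9 and Kcnn2, and 1.81% to 13.0% with Kcnn2 alone. Its medians in these cells were 5.33%, 5.72% and 9.09%, highest with Kcnn2 alone. Corrected for this share, rho was 0.30 between Chrna9 and Chrna10 and 0.23 between Chrna9 and Kcnn2. Thinned to the depth of the shallowest library, the full set was again found in 26 cells. Of the glial list, Sox10 was the 1 gene that averaged 10 CPM, with a rho of 0.68 with Chrna9. The other 4 were each detected in at most 1 cell, and Mbp and Pmp22 in 0. Sox10 was detected in 17 of the 26 cells with the full set, in 9 of the 20 with Chrna9 and Kcnn2, and in 0 of the 15 with Kcnn2 alone. The summed glial list ran from 0 to 276 CPM, and its part in these results was not tested.

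The genes whose levels followed Chrna9 most closely were Aqp11, an aquaporin (0.78), Prxl2a, a peroxiredoxin-like gene (0.73), the calcium buffer Calb1 (0.71), Cubn, which encodes the endocytic receptor cubilin (0.70), and Anxa5, a calcium-dependent phospholipid binder (0.70). Slc26a5 stood at place 11 of 8618 (0.67). The lowest were Atp2a3 (-0.73), Ripor3 (-0.72) and Igfbp5, a binding protein of insulin-like growth factors (-0.71). Over all 8618 genes, 98 (1.14%) reached 0.5 and 67 (0.777%) reached -0.5 with Chrna9. After correction of the ranks for the mitochondrial share, the numbers were 24 and 17.

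Chrna10 had fewer and weaker followers. Txndc15, a thioredoxin domain gene (0.55), Aqp11 (0.53), P2rx2, an ATP-gated channel (0.53), Aldh9a1, an aldehyde dehydrogenase (0.52), and Acp7 (0.52) were the highest, and Tomm7, a subunit of the mitochondrial import pore (-0.52), Lpp (-0.51) and Selenos (-0.49) the lowest. With Chrna10, 7 of 8618 genes (0.0812%) reached 0.5 and 2 (0.0232%) reached -0.5, and none did after correction for the mitochondrial share. The 5 highest genes then ran from 0.465 (Aldh9a1) to 0.499 (Txndc15), and Tomm7 and Lpp were at -0.471 and -0.458. The counts thus depend on the limit of 0.5. For Kcnn2 and Chrna1, 0 genes (0.0%) reached 0.5 in either direction. The highest for Kcnn2 were Sri, a calcium-binding protein of outer hair cells (0.43), H2-K1, a class I histocompatibility gene (0.42), Atp8a2, a lipid flippase (0.41), Ap1ar (0.40) and Ptp4a1 (0.40). Its lowest were Ripor3 (-0.45), Cst3, a protease inhibitor (-0.43), and Taf8 (-0.42). For Chrna1 the highest were Cacna2d4, a calcium channel subunit (0.46), Gusb (0.46), Fcrlb (0.45), Armcx1 (0.45) and Ttc39b (0.45), and the lowest were Gpx4 (-0.45), Slc4a7 (-0.42) and Rps20 (-0.42). Aqp11 was thus among the 5 closest genes of both receptor subunits, and of neither Kcnn2 nor Chrna1.

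Most of the other nicotinic subunit genes were not detected. Of 16 subunit genes, Chrna9 alone was detected in at least 37 cells, and 11 were detected in 0 cells. Chrnb1 was detected in 13 cells with a maximum of 169 CPM, and Chrnb2, a neuronal subunit, in 16 cells with a maximum of 129 CPM. Of the SK and IK channels, Kcnn1 was detected in 3 cells, Kcnn3 in 0 and Kcnn4 in 1. The BK channel gene Kcnma1, a large-conductance potassium channel of hair cells, was detected in 70 cells (median 182 CPM) and its auxiliary subunit Lrrc52 in 64 (median 201 CPM). Both had negative correlations with Chrna9 (-0.37 and -0.35) and with Chrna10 (-0.34 and -0.29), while Kcnmb2, a further BK subunit gene detected in 10 cells, had positive ones (0.21 and 0.20). The central 95% of all genes ran from -0.39 to 0.41 with Chrna9, which holds all 3 values. With Chrna10 it ran from -0.302 to 0.298, which holds Lrrc52 and Kcnmb2 but not Kcnma1 (-0.337).

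Of 6 gating partners of SK2, 5 were detected in at least 37 cells, as were 5 of 12 genes of calcium stores and entry. Calm2 and Calm3, which encode the calmodulin bound to SK2, were detected in all 73 cells, with medians of 16403 and 246 CPM. Of the kinase CK2, which sits in the SK2 complex, Csnk2a1 and Csnk2b were detected in 59 and 70 cells and Csnk2a2 in 21. Calcium release channels were sparse: Ryr1, Ryr2 and Ryr3 were detected in 2, 0 and 6 cells and Itpr1, Itpr2 and Itpr3 in 15, 6 and 1. Cacna1d, the calcium channel of hair cell synapses, was detected in all 73 cells (median 290 CPM). Of 12 genes of calcium stores and entry, Atp2b2, a plasma membrane pump, was the one at 0.5 or more with Chrna9 (0.55). Atp2a3 was the one at -0.5 or less. Atp2b1, another plasma membrane pump, was detected in all 73 cells and had a rho of -0.30 with Chrna9. Of 4 calcium buffers, Ocm (0.60) and Calb1 (0.71) reached 0.5 with Chrna9, and Calb2 (-0.44) and Pvalb (-0.36) were negative. With Chrna10 and Kcnn2 no gene of these lists reached 0.5.

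Of 11 genes for receptor assembly or modulation, 7 were detected in 0 cells, among them Tmem35a, the chaperone NACHO of neuronal nicotinic receptors, and Musk. Ric3, a chaperone of nicotinic receptors, was detected in 46 cells (median 26.6 CPM), and Tmie, a component of the mechanotransduction complex, in 50 (median 26.6 CPM). Rapsn, which clusters the muscle receptor, was detected in 4 cells. Of 10 other receptors for efferent transmitters, Chrm3, a muscarinic receptor, was detected in 63 cells (median 54.1 CPM). Its rank correlation with Chrna9 was -0.30. Gabbr1 was detected in 26 cells and its partner Gabbr2 in 0. In all, 22 of 69 genes of the 8 lists, the members included, were detected in at least 37 cells. The median correlation with Chrna9 was -0.35 over 3 ranked BK genes, -0.22 over 6 SK2 partners, 0.21 over 5 calcium store genes and 0.12 over 4 buffers, against -0.02 over all 8618 genes.

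**Figure D4:**
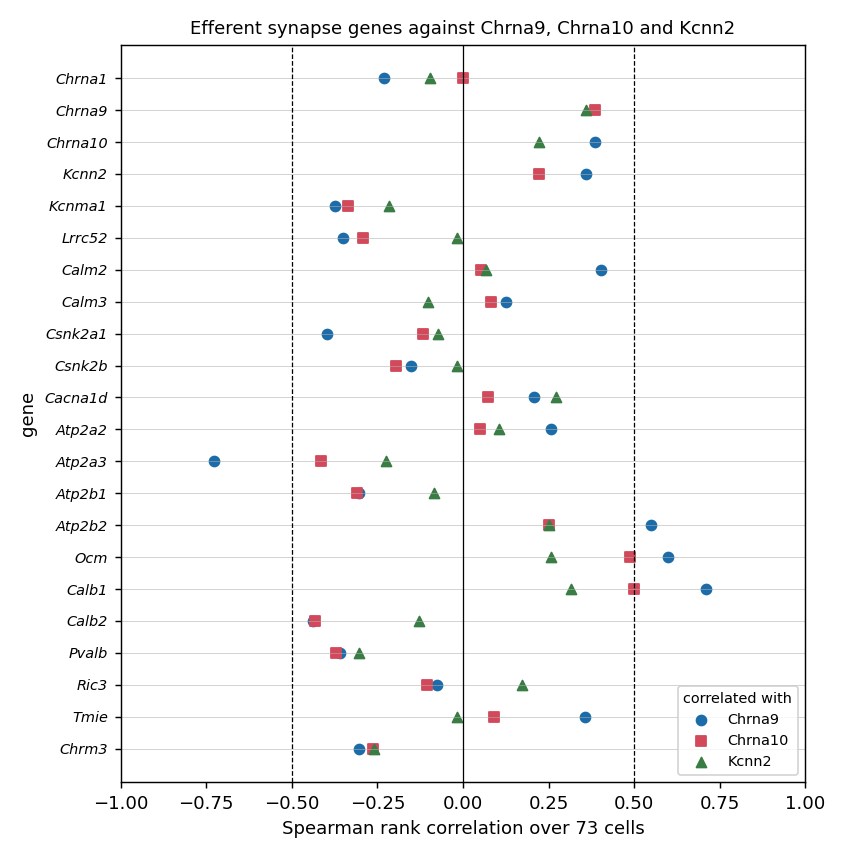
Spearman rank correlation over 73 cells (x axis) of efferent synapse genes (y axis) with Chrna9, Chrna10 and Kcnn2, for 20 of the 22 listed genes detected in at least 37 cells and for Chrna10 and Chrna1, with dashed lines at 0.5 and -0.5. Calb1 (0.71), Ocm (0.60) and Atp2b2 (0.55) lie beyond 0.5 with Chrna9 and Atp2a3 (-0.73) beyond -0.5, and no Kcnn2 value passes either line.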

How the data were processed

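The deposited values are unnormalized read counts of the authors, in 55292 rows by 73 columns, each column matching a sample title. Per the labels' protocols the Smart-Seq HT kit gave full-length cDNA. It has no molecular identifiers, so counts hold PCR copies. Build mm10 and the tools featureCounts 2.0.1, StringTie 2.2.1 and HISAT2 2.2.1 are named in the submitters' processing notes, without roles or settings. Neither annotation release nor strand setting is stated. The reporter row WPRE (0.0161% of counts) stayed out of library totals.

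From these counts CPM, detection at 10 CPM, exact Clopper-Pearson 95% intervals and Spearman correlations among 8619 genes averaging at least 10 CPM were computed. Code for the correlations was tested on simulated data. No count model was used, since there is 1 group and no named animal. No 2 libraries were identical (0 pairs). No doublet caller was run on hand-picked cells. Exon lengths are unions over GENCODE vM21 transcripts. The members, lists and thresholds were chosen with earlier results of these data known. The text names the members, pathway genes detected in at least 37 cells, for each member the 5 genes of highest and 3 of lowest correlation (genes without an official name skipped), and Slc26a5, Ocm and Slc17a8. Sox10, Art1, other markers and pathway genes in fewer than 37 cells were named after their values were seen. Some genes of the lists are counted but not reported here by name. Alternatives were other thresholds, thinning, scalings, partial correlations and cells left out for markers of other types, C1qb and Gjb6 being added after seeing the data. R 4.3.3 with scran 1.30.0 gave size factors, and Python 3.11.15 with scipy 1.17.1, pandas 2.3.3, numpy 2.4.6 and matplotlib 3.10.9 the rest.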

Additional observations from a re-analysis of the deposited data

How the results depend on the processing

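Of 122 recomputed values, 104 stayed within the 95% interval of the reported share or median, within 0.1 of the reported correlation, or within 1.5 times the reported count of genes. Scran size factors, totals without mitochondrial counts, thinning and leaving out the 16 cells with a rare marker, or the 30 with such a marker, C1qb or Gjb6 (chosen after seeing the data), stayed within these limits for every share, median and correlation they were run on. With 1 count as the threshold, shares of cells were 83.6% for Chrna9, 58.9% for Chrna10, 57.5% for Chrna1, 95.9% for Kcnn2, 52.1% for both subunits and 52.1% for the full set. At 1 CPM Kcnn2 was at 95.9%. At 50 CPM, Chrna10 was at 30.1%, Kcnn2 at 49.3%, both subunits at 26.03% and the full set at 16.4%. These shares follow from the threshold itself. Corrected for Slc26a5, rho was 0.108 between Chrna9 and Chrna10 (0.384 uncorrected) and 0.106 between Chrna10 and Chrna1 (-0.001). Corrected for the mitochondrial share, rho was 0.235 between Chrna9 and Kcnn2 (0.360 uncorrected). Genes at 0.5 and at -0.5 with Chrna9 then numbered 24 and 17 (98 and 67 uncorrected), and with Chrna10 0 and 0 (7 and 2 uncorrected). Txndc15, the named gene closest to Chrna10, was then at 0.499 (0.547 uncorrected). The cause of these shifts was not tested. No paired analysis was possible because all cells form 1 group. Intervals cover counting error over cells only, and the number of animals behind the cells is not named.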
